A study of Mus musculus with 7 samples.

Results

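The effect of object recognition training on hippocampal microRNAs (miRNAs) was examined in NIPP1* mice, using the 3 libraries of 7 in the series whose sample labels give this genotype. Libraries 6 and 7 came from trained NIPP1* mice and library 2 from untrained NIPP1* mice. NIPP1* is a fragment of the nuclear inhibitor of protein phosphatase 1 (PP1), and the labels describe the line as a PP1 loss of function. Per the study's methods the fragment was switched on by doxycycline in adult forebrain neurons, through a CaMKIIalpha-driven transactivator, so other cells of the hippocampus were not targeted. Trained mice explored objects in the object recognition arena, and untrained mice saw the arena without objects. The remaining libraries were 1 from untrained wildtype mice (library 1) and 3 from trained wildtype mice (libraries 3, 4 and 5), and all mice were C57BL/6 adults of 3 to 5 months. Hippocampi of several mice were pooled for sequencing, so the spread between libraries is not a spread between single mice. Whether the libraries of a group are separate pools or repeat preparations of 1 pool is not stated. The spread behind every SE, interval and p-value here may thus be partly or wholly technical. The transgene gives no small RNA, so the genotype could not be checked in these files.

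The assignment of the trained libraries was not settled by the deposited data. The tables of group means deposited beside the libraries hold a column for trained NIPP1, and its values were rebuilt by the mean of libraries 3, 4 and 5 with a root mean square error of 0.0347% in one table and 0.045% in the other, against 18.8% for libraries 6 and 7. The column for trained wildtype was rebuilt by libraries 6 and 7 with an error of 0.0212%, against 18.3% for libraries 3, 4 and 5. Each best match was found among all 31 sets of the 5 trained libraries. The deposited means thus match the opposite of the labelled assignment. Groups follow the sample labels here, and the fits, most group medians and the main miRNAs are also given with libraries 3, 4 and 5 as trained NIPP1*. Library 2 is the untrained NIPP1* library under both assignments and the only one of its group, so any deviation of that pool enters every comparison with training.

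A miRNA is a short RNA cut from a hairpin precursor, and either arm of the hairpin can become a mature product, an asterisk being part of some names in the files, whichever arm is the more abundant one here. The mature strand guides Argonaute to messenger RNAs that pair with its seed, bases 2 to 8, and lowers their translation and stability. Members of a family share a seed and so can share targets. In neurons many miRNAs respond to activity, and their turnover can be fast. PP1 removes phosphate groups from synaptic and nuclear proteins and is known as a constraint on memory.

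The mature sequences below are those on which the comparison turned, with the seed in capitals. The first 8 are miRNAs for which the untrained library lay apart from both trained NIPP1* libraries, and the others are miRNAs for which the 2 trained NIPP1* libraries lay apart from each other, followed by the let-7 members.
miR-146a: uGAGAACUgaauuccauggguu
miR-434-3p: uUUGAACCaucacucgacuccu
miR-136: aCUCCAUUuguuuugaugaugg
miR-344d-3*: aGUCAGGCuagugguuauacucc
miR-219-5p: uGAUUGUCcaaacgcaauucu
miR-144: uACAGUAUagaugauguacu
miR-144*: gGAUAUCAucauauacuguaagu
miR-451: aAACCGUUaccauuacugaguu
miR-182: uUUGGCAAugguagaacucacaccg
miR-183: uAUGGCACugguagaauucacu
miR-96: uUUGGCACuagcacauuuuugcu
miR-1298: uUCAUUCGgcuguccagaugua
miR-448-3p: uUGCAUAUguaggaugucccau
miR-200a: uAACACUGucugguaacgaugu
let-7a: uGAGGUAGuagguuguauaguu
let-7c: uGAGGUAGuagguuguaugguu
let-7f: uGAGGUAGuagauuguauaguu
These come from RefSeq (GRCm38.p6), which gave a sequence for 411 of the 476 miRNAs tested.

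The deposited value of a miRNA is its percent of the miRNA reads of a library, given here as reads per 1000000 miRNA reads (RPM). A value is thus a share, and a change in a few abundant miRNAs moves the shares of all others. In bulk tissue, fewer cells of a type and less of a miRNA per cell cannot be told apart. The recovered depth was 8072802 miRNA reads in library 2, 7285268 in library 6 and 10017708 in library 7. At this depth counting error was small for abundant miRNAs, with an exact 95% binomial interval for miR-146a in library 2 of 679 to 716 RPM around 697.5 RPM, and wide for rare ones, with 2.51 to 5.31 RPM around 3.72 RPM for miR-144. Such intervals cover counting error only, since PCR copies were not marked.

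The 3 libraries were alike over most of their miRNAs. Pearson's r of the log2 levels, across the 476 miRNAs tested, was 0.995 between libraries 2 and 6, 0.993 between 2 and 7 and 0.994 between 6 and 7. Most differences were small. Among the 324 miRNAs whose reads averaged 100 or more in these libraries, the median size of the log2 ratio was 0.19 for library 6 against 2, 0.18 for library 7 against 2 and 0.14 for library 7 against 6. A log2 ratio beyond 1 was seen for 5, 8 and 10 miRNAs in these same pairs. The 2 trained libraries thus had more miRNAs this far apart from each other than either had from library 2. In both trained libraries the log2 ratio to library 2 passed 1 for 2 of 324 miRNAs (0.617%), the 2 arms of miR-144, and for none in the lower direction. miR-219-5p (1.31 and 0.82) and miR-146a (-1.29 and -0.97) lay just short of this size in library 7. Of the 476 tested miRNAs, 473 also averaged 10 or more reads over these 3 libraries, and 6 of them (1.27%) passed, with miR-33, miR-135a-1*, miR-141 and miR-344d-3* added.

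**Figure D1:**
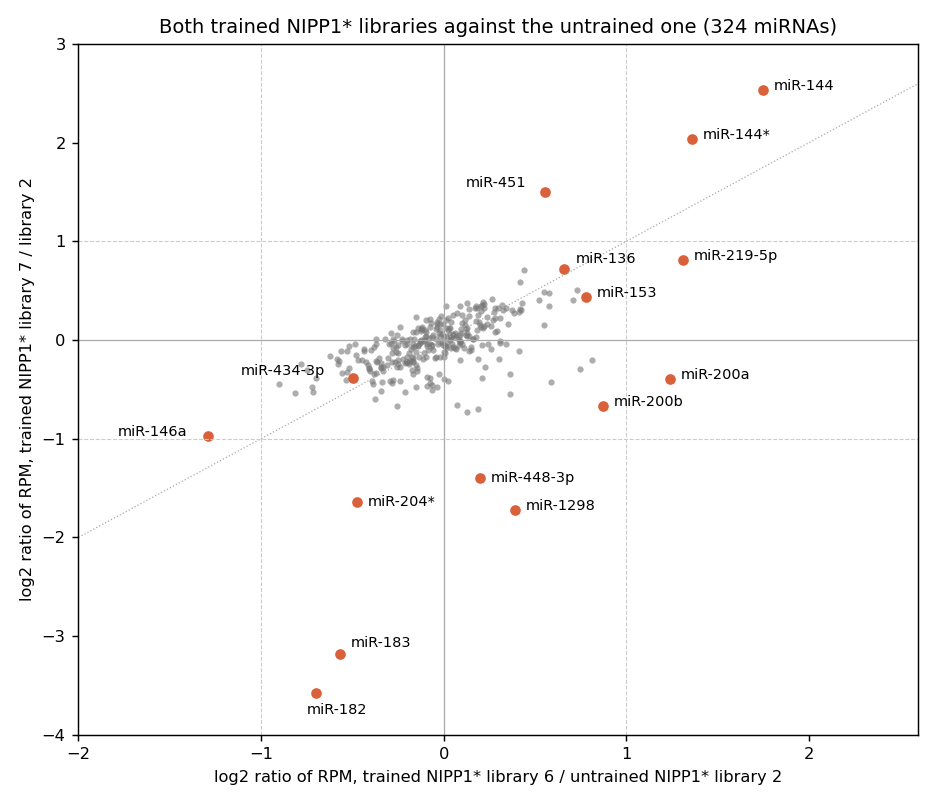
Each point is 1 of 324 miRNAs, with the log2 ratio of RPM of trained NIPP1* library 6 to untrained NIPP1* library 2 on the x axis and that of library 7 to library 2 on the y axis; dashed lines mark a log2 ratio of 1 in either direction and the dotted line marks equal ratios. The arms of miR-144 lie beyond 1 on both axes, miR-1298 and miR-448-3p are low on the y axis only, and miR-182 and miR-183 are below 0 on both axes but far lower on the y axis.

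No miRNA passed an adjusted p of 0.05 for training in NIPP1* in a limma fit of all 7 libraries on log2(RPM + 0.5), 0 of 476 (0%). The spread in this fit came from the 5 trained libraries. The lowest adjusted p of this limma fit was 0.363, and 21 miRNAs had an unadjusted p under 0.05. The quasi-likelihood test of edgeR on the recovered reads gave 0 calls as well, with 22 at an unadjusted p under 0.05. DESeq2's Wald test on the same reads called 2, miR-136 at a log2 fold change of 0.73 ± 0.18 (SE, adjusted p = 0.0142) and miR-146a at -1.08 ± 0.28 (adjusted p = 0.0209). With libraries 3, 4 and 5 as trained NIPP1*, limma called 0 of 476 (0%), where the lowest adjusted p was 0.958 and 9 miRNAs had an unadjusted p under 0.05, and edgeR and DESeq2 called 0 too. Both trained NIPP1* libraries lay above library 2 for 146 of the 476 miRNAs (30.7%) and below it for 188 (39.5%). All 5 trained libraries, a set that no exchange of genotypes changes, lay above library 2 for 41 miRNAs (8.61%) and below it for 88 (18.5%).

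miR-146a, a miRNA induced by NF-kappaB that restrains inflammatory signalling and is also activity-dependent in neurons, had the lowest ratio shared by both trained NIPP1* libraries. Its level was 697.5 RPM in library 2 and 285.7 and 356.5 RPM in libraries 6 and 7, a mean of 321 ± 50.1 RPM (SD, n = 2) in the trained group. The trained wildtype libraries had 483.8, 346.1 and 403.8 RPM, and library 1 had 438.4 RPM. The untrained NIPP1* library thus stood above the 6 others, and no trained library overlapped it. The log2 fold change was -1.13 ± 0.25 (SE, limma adjusted p = 0.449), with a 95% interval of -1.72 to -0.54 before adjustment, and -0.78 ± 0.23 (adjusted p = 0.958) with libraries 3, 4 and 5 as trained NIPP1*. It lies on chromosome 11, at chr11:43187937-43187958 of mm9 on the minus strand.

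miR-434-3p, from the imprinted Dlk1-Dio3 region of chromosome 12, behaved likewise at a higher level. Library 2 had 7062 RPM, libraries 6 and 7 had 5007 and 5401 RPM, and libraries 3, 4 and 5 had 5209, 5754 and 5100 RPM. Every trained library was below library 2, and so was library 1 at 5100 RPM. The log2 fold change of -0.44 ± 0.14 by the labels and -0.40 ± 0.13 by the deposited means did not pass the adjusted test under limma (adjusted p = 0.962 and 0.958). It was chosen for description after its values were seen. The other arm of this hairpin, miR-434-5p, had 1398 RPM in library 2 and 1063 and 1301 RPM in libraries 6 and 7, again lower in all trained libraries.

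miR-136, a neighbour of miR-434 in the same imprinted region, was the most abundant of the 10 miRNAs with the largest upward ratio shared by both trained NIPP1* libraries. Its level went from 13010 RPM in library 2 to 20580 and 21450 RPM in libraries 6 and 7, 21015 ± 615 RPM (SD, n = 2). Libraries 3, 4 and 5, at 14500, 16580 and 14010 RPM, lay between, and library 1 had 18000 RPM. All trained libraries were above library 2, those labelled NIPP1* by more. The log2 fold change was 0.69 ± 0.14 (limma adjusted p = 0.363) by the labels and 0.20 ± 0.13 (adjusted p = 0.958) by the deposited means. The opposite arm, miR-136*, did not follow it, with 1579 RPM in library 2 and 1469 and 1612 RPM in libraries 6 and 7.

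**Figure D2:**
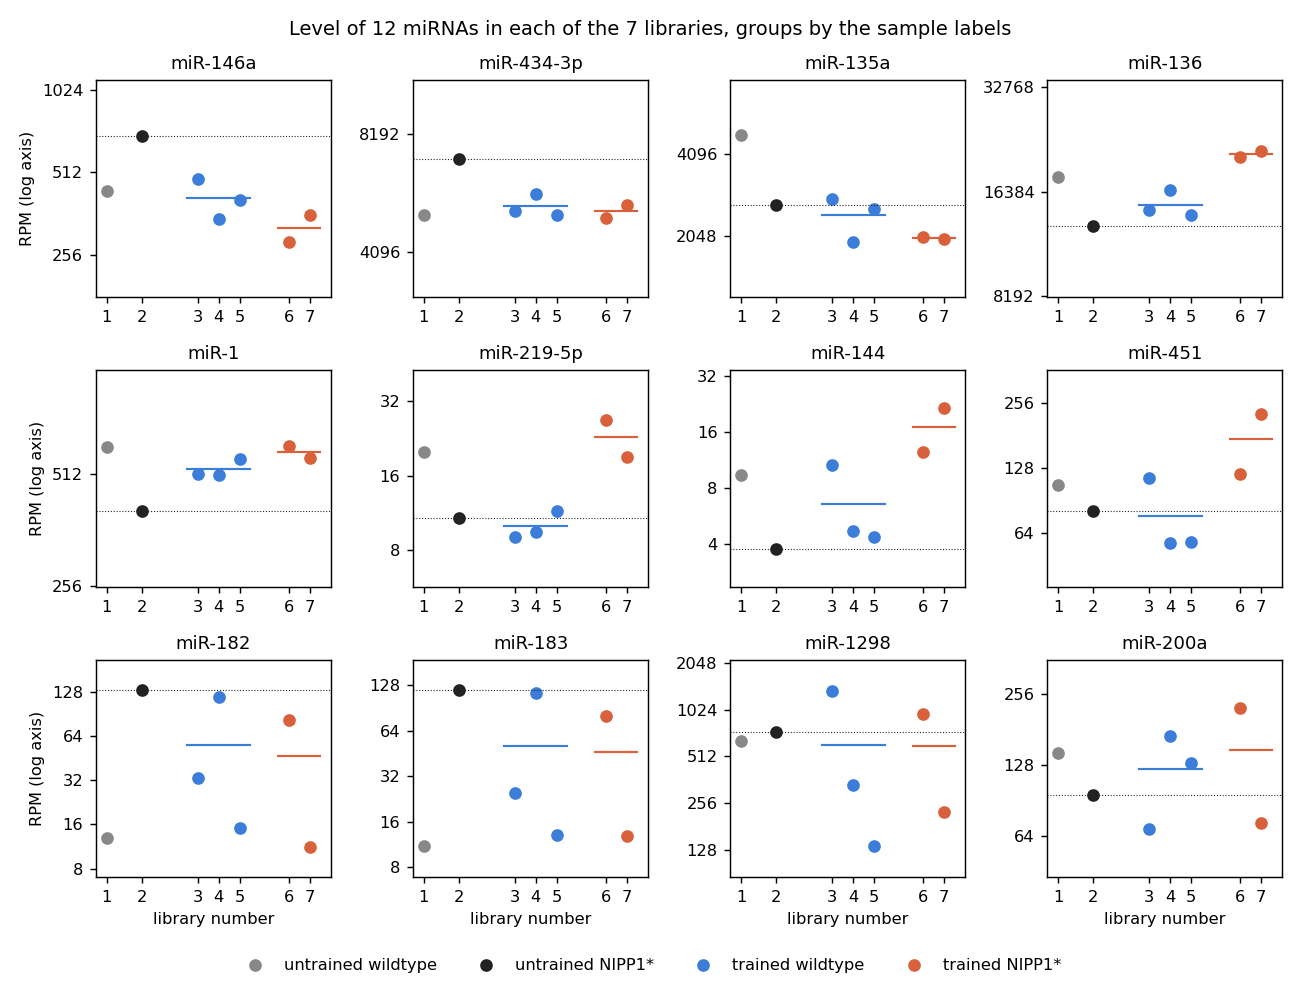
Levels of 12 miRNAs in RPM on a log axis, 1 point for each of the 7 libraries and coloured by the group in the sample labels; bars are group means and the dotted line is the level in untrained NIPP1* library 2. For miR-146a, miR-434-3p, miR-136, miR-1 and miR-144 all 5 trained libraries lie on one side of library 2, as they do for miR-182 and miR-183, but the trained libraries of each group are spread widely for these 2 and for miR-1298 and miR-200a.

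Among the other miRNAs higher in both libraries, those of the erythroid locus on chromosome 11 stood out in size. miR-144 and miR-451 are made in red blood cell precursors and reach tissue RNA with blood. miR-144 had 3.72 RPM in library 2, from 30 reads, and 12.5 and 21.6 RPM in libraries 6 and 7. Its log2 ratios were 1.75 (95% counting interval 1.14 to 2.40) and 2.53 (1.98 to 3.14). The other arm, miR-144*, had 5.08 RPM in library 2 and 13.0 and 20.9 RPM in libraries 6 and 7, and miR-451 had 81.3, 120 and 229 RPM in the same order. Library 7 was the highest of all 7 libraries for these 3 products. With libraries 3, 4 and 5 as trained NIPP1* the log2 fold change of miR-144 was 0.63 ± 0.53 in place of 2.004 ± 0.56 (limma adjusted p = 0.958 and 0.834), that of miR-144* was 0.27 ± 0.58 in place of 1.61 ± 0.62, and that of miR-451 was -0.16 ± 0.49 in place of 1.02 ± 0.52. miR-486*, the remaining tested product of the red blood cell group, had 5.08 RPM in library 2 and 5.08 and 5.79 RPM in libraries 6 and 7. The summed level of the 4 red blood cell products was 95.1 RPM in library 2 and 150 and 278 RPM in libraries 6 and 7, and the part of blood in these values was not tested. Their median log2 fold change was 1.32 by the labels and 0.28 by the deposited means.

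miR-219-5p, which drives the maturation of oligodendrocytes, the myelinating cells, was higher in both trained NIPP1* libraries, and libraries 3, 4 and 5 lay close to library 2. It had 10.8 RPM in library 2, 26.7 and 18.97 RPM in libraries 6 and 7, and 9.09, 9.46 and 11.6 RPM in libraries 3, 4 and 5, while library 1 had 19.97 RPM. The log2 fold change was 1.03 ± 0.30 (limma adjusted p = 0.834) by the labels and -0.10 ± 0.28 (adjusted p = 0.958) by the deposited means. The more abundant oligodendrocyte miRNA miR-338-3p had 3834 RPM in library 2 and 4348 and 4104 RPM in libraries 6 and 7, with 3290, 2757 and 2958 RPM in libraries 3, 4 and 5 and 4788 RPM in library 1. miR-219-3p spanned library 2 (511.7 RPM), with 634.3 RPM in library 6 and 507.9 RPM in library 7. miR-338-5p spanned it too, with 40.3 RPM in library 2 and 50.9 and 39.1 RPM in libraries 6 and 7, and the rare miR-219-3p* was lower in both, with 2.97 RPM against 1.92 and 2.0 RPM. Over these 5 products the median log2 fold change was 0.15 by the labels and -0.22 by the deposited means. For miR-219-5p and miR-338-3p, libraries 6 and 7 lay nearer to library 1 than libraries 3, 4 and 5 did.

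miR-344d-3* was also of this kind at a low level. It had 4.09 RPM in library 2 (33 reads), 12.2 and 15.8 RPM in libraries 6 and 7, 4.27, 4.67 and 3.33 RPM in libraries 3, 4 and 5, and 10.2 RPM in library 1. Libraries 1, 6 and 7 did not overlap libraries 2 to 5. Its log2 fold change was 1.65 ± 0.31 by the labels (limma adjusted p = 0.363) and -0.01 ± 0.29 by the deposited means (adjusted p = 0.994), so that its result rests wholly on which libraries are called NIPP1*.

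The muscle-associated miR-1 was higher in every trained library than in library 2. It had 407.2 RPM there, 606.8 and 565.0 RPM in libraries 6 and 7, 511.5, 507.5 and 561.6 RPM in libraries 3, 4 and 5 and 604.1 RPM in library 1. Its log2 fold change was 0.52 ± 0.17 by the labels and 0.37 ± 0.16 by the deposited means (limma adjusted p = 0.962 and 0.958). The neuronal miR-153, which targets alpha-synuclein, had 128.1 RPM in library 2, 220.0 and 173.4 RPM in libraries 6 and 7 and 138.9 to 147.3 RPM in the other trained libraries. Also in this direction were miR-129-1-3p with 12.4 RPM against 18.1 and 17.4 RPM, miR-708 with 239.7 against 325.6 and 391.6 RPM, and miR-592 with 8.92 against 14.8 and 12.7 RPM. In libraries 3, 4 and 5, miR-129-1-3p had 14.5, 15.2 and 17.1 RPM, miR-708 had 237.9, 321.9 and 261.3 RPM and miR-592 had 12.2, 7.42 and 6.01 RPM, and the log2 fold changes of these 3 miRNAs went from 0.50, 0.57 and 0.59 by the labels to 0.32, 0.18 and -0.12 by the deposited means. Of the 10 miRNAs with the largest shared upward ratio, 5 were above library 2 in all 5 trained libraries, where 28.1% of the 146 miRNAs above it in libraries 6 and 7 were so. The 10 were picked by their distance from library 2, which by itself favours a larger share, so nothing is concluded from the excess.

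Of the 10 miRNAs with the largest shared downward ratio, 6 were below library 2 in all 5 trained libraries, where 46.8% of the 188 miRNAs below it in libraries 6 and 7 were so. The same selection by distance from library 2 favours a larger share here too. miR-21, a miRNA of reactive glia and leukocytes, had 619.5 RPM in library 2, 376.4 and 445.8 RPM in libraries 6 and 7, and 639.8, 347.7 and 506.7 RPM in libraries 3, 4 and 5. The groups overlapped once library 3 was counted as NIPP1*. miR-138-2*, the passenger arm of a miRNA of dendritic spines, had 77.6 RPM in library 2 and 44.2 and 53.6 RPM in libraries 6 and 7. miR-323-3p went from 252.5 RPM to 153.7 and 174.7 RPM, miR-874 from 277.2 RPM to 191.6 and 210.0 RPM, and the hypoxia-induced miR-210 from 25.2 RPM to 13.5 and 18.5 RPM. miR-135a had 2661 RPM in library 2 and 2029 and 1994 RPM in libraries 6 and 7, with 4840 RPM in library 1. Their log2 fold changes by the labels were between -0.67 and -0.40, and by the deposited means between -0.36 and -0.14, and none passed the adjusted limma test (lowest adjusted p 0.962 and 0.958).

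**Figure D3:**
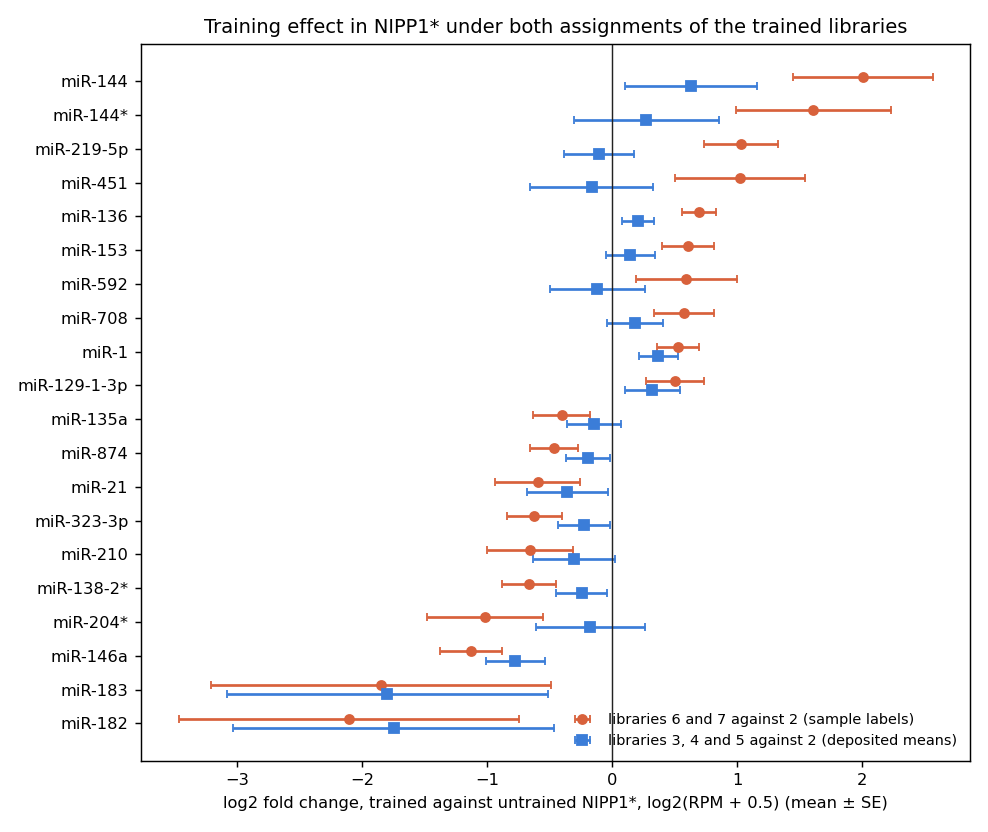
Log2 fold change (± SE, limma on log2(RPM + 0.5)) of trained against untrained NIPP1* for the 20 miRNAs with the largest ratio shared by libraries 6 and 7; circles use libraries 6 and 7 as the sample labels do, squares use libraries 3, 4 and 5 as the deposited means do. miR-146a and miR-1 are away from 0 under both, whereas miR-219-5p, miR-451 and miR-592 change sign.

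The miR-183/96/182 cluster, a sensory-cell cluster transcribed as one precursor from chromosome 6, was lower in both trained NIPP1* libraries, but by very unequal amounts. miR-182 had 133.2 RPM in library 2, 81.95 RPM in library 6 and 11.18 RPM in library 7. miR-183 followed with 117.9, 79.61 and 12.98 RPM, and miR-96 with 7.56, 7.14 and 1.40 RPM. For miR-182 the log2 ratio of library 7 was -3.57 to library 2 and -2.87 to library 6. The same spread was present in the other trained libraries, where miR-182 had 33.41, 118.0 and 15.22 RPM, and library 1 had 12.93 RPM. The log2 fold changes were -2.11 ± 1.36 for miR-182, -1.85 ± 1.36 for miR-183 and -1.08 ± 1.22 for miR-96 (limma adjusted p = 0.973, 0.973 and 0.976), and -1.75, -1.80 and -1.11 by the deposited means. Library 2 exceeded all trained libraries for miR-182 and miR-183, but library 4 came close with 118.0 and 114.2 RPM.

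Libraries 6 and 7 were a log2 ratio of more than 1 apart for 10 miRNAs, each lower in library 7. Besides miR-182 and miR-183 these were miR-1298, miR-448-3p, miR-204*, miR-200a, miR-200b, miR-34c, miR-34b-5p and miR-206. miR-1298 and miR-448-3p lie in introns of Htr2c, the serotonin receptor gene that is highly active in the choroid plexus. miR-1298 had 735.7 RPM in library 2, 963.7 RPM in library 6 and 223.2 RPM in library 7, and in libraries 3, 4 and 5 it had 1348, 335.8 and 135.7 RPM. miR-448-3p had 114.7, 131.5 and 43.5 RPM in libraries 2, 6 and 7. miR-204, a miRNA of the choroid plexus and the retinal pigment epithelium, had 796.1, 871.6 and 480.7 RPM. The 8 choroid plexus products summed to 1811 RPM in library 2, 2149 RPM in library 6 and 857 RPM in library 7, and to between 625 and 2895 RPM in libraries 3, 4 and 5. Library 2 lay between the trained NIPP1* libraries for 7 of these 8 products, against 29.8% of all miRNAs. Their median log2 fold change was -0.49 by the labels and -0.69 by the deposited means.

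The miR-200 family marks epithelial cells and olfactory neurons. miR-200a had 95.3 RPM in library 2, 224.6 RPM in library 6 and 72.7 RPM in library 7, and miR-200b had 57.4, 105.1 and 36.0 RPM. The 6 products of the family summed to 164, 360 and 117 RPM in libraries 2, 6 and 7 and to 112, 319 and 222.4 RPM in libraries 3, 4 and 5. miR-34c and miR-34b-5p, a pair abundant in ciliated cells, had 969.3 and 260.8 RPM in library 2, 1628 and 392.3 RPM in library 6 and 790.5 and 194.6 RPM in library 7. miR-34c lay with the sum of the choroid plexus products in that libraries 3 and 6 were highest. This did not hold for every product of that group, as miR-204* had 16.6 RPM in library 6 against 23.0 RPM in library 2. The median log2 fold change of the miR-200 family was 0.38 by the labels and 0.31 by the deposited means. That of the miR-34 and miR-449 group was 0.12 and -0.16, so its sign turned with the assignment. The part of neighbouring tissue in these differences was not tested.

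**Figure D4:**
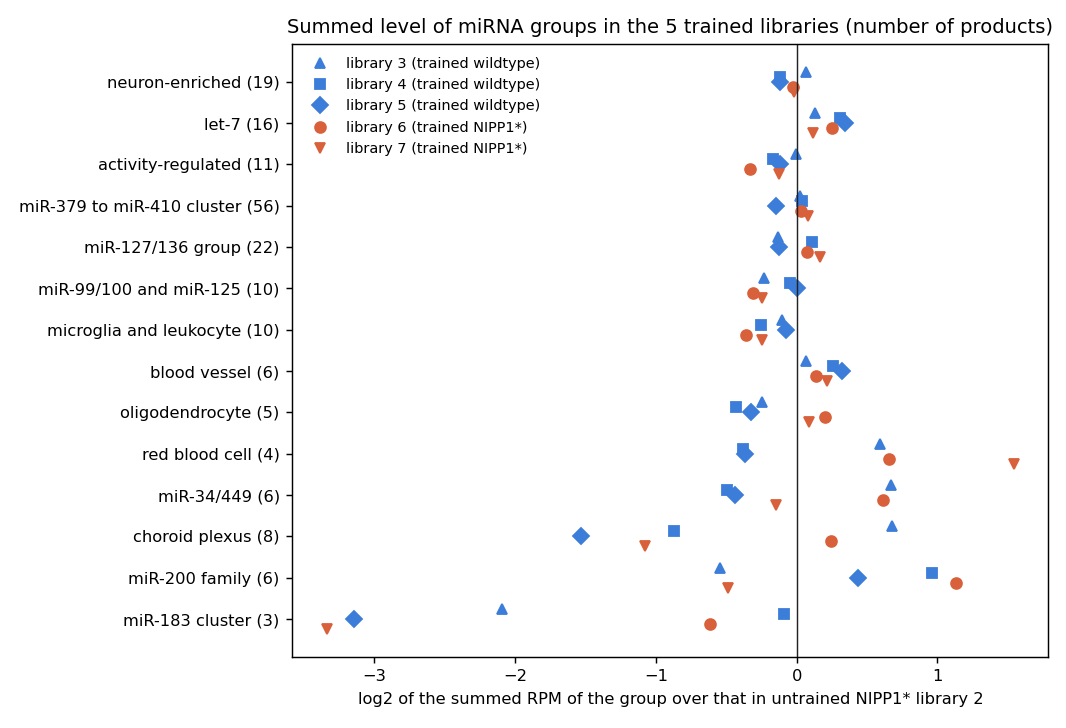
Log2 of the summed RPM of 14 miRNA groups in each trained library over that in untrained NIPP1* library 2, with the number of tested products in brackets. The neuron-enriched and imprinted groups lie near 0 in all trained libraries, while libraries 6 and 7 lie on opposite sides of 0 for the choroid plexus, miR-200 and miR-34 groups.

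Neuronal miRNAs had similar sums in the 3 libraries. The 19 neuron-enriched products summed to 244485 RPM in library 2 and 239967 and 241513 RPM in libraries 6 and 7 and thus were abundant in the labelled tissue. Of these products 8 were above and 6 below library 2 in both trained libraries, against 30.7% and 39.5% of all miRNAs, and their median log2 fold change was 0.03 by the labels and -0.02 by the deposited means, beside -0.03 and -0.09 over all 476. miR-9, a neural miRNA and the most abundant one here, had 126600 RPM in library 2 and 129600 and 128100 RPM in libraries 6 and 7. miR-128 had 65650 RPM against 58385 and 57695 RPM, and miR-124, the classical neuronal miRNA, had 4054 RPM against 4091 and 5135 RPM. The log2 fold change of miR-9 was 0.03 ± 0.16, with a 95% interval of -0.35 to 0.40 before adjustment.

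The activity-regulated group joins miRNAs with known responses to neuronal activity, with the CREB-induced miR-132 and miR-212 as the classical pair, and includes miR-146a, described above, and products of miR-134, miR-146b, miR-188 and miR-485. Of its 11 products 1 was above library 2 in both trained NIPP1* libraries and 7 were below, against 30.7% and 39.5% of all miRNAs, 0 passed the adjusted limma test, and the median log2 fold change was -0.10 by the labels and 0.03 by the deposited means. miR-132 had 297.6 RPM in library 2 and 292.5 and 343.9 RPM in libraries 6 and 7. Its other arm miR-132*, the most abundant product of the group, was below library 2 in both libraries. The log2 fold change of miR-132* was -0.14 by the labels and -0.09 by the deposited means. For miR-212-5p (-0.18 and 0.03) library 2 lay between libraries 6 and 7. miR-212-3p was the product above library 2 in all trained libraries, with 115.8 RPM there, 121.8 and 140.1 RPM in libraries 6 and 7 and 118.1 to 139.4 RPM in the others. miR-134, which limits dendritic spine size, had 196.8 RPM against 189.3 and 183.8 RPM. The miR-379 to miR-410 cluster that includes miR-134 had 23 of 56 products above and 20 below library 2 in both, with a median log2 fold change of 0.03 by the labels and -0.07 by the deposited means. The neighbouring group of miR-127 and miR-136 had 4 of 22 above and 10 below, with medians of -0.07 and -0.06.

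let-7 is a family that promotes differentiation and whose main arms carry the GAGGUAG seed shown above. Of its 16 tested products, both arms counted, 7 were above library 2 in both trained NIPP1* libraries and 5 below, against 30.7% and 39.5% of all miRNAs, with a median log2 fold change of 0.02 by the labels and 0.10 by the deposited means. Of the 9 products that carry the seed, 6 were above library 2 in both trained NIPP1* libraries and 0 were below, with a median log2 fold change of 0.18 by the labels and 0.20 by the deposited means, beside -0.03 and -0.09 over all 476 miRNAs. let-7f had 34125 RPM in library 2 and 45990 and 44230 RPM in libraries 6 and 7, and let-7a had 35055 RPM against 41985 and 38670 RPM. let-7c had 47650 RPM in library 2, 58020 and 50430 RPM in libraries 6 and 7 and 52360 to 66190 RPM in libraries 3, 4 and 5. let-7a, let-7c, let-7f and let-7g were higher in all 5 trained libraries than in library 2. Single reads can be split between members that differ by few bases, so the members are not independent. None passed the adjusted limma test, where let-7f had 0.40 ± 0.12 (adjusted p = 0.834).

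miR-99/100 and miR-125 are encoded beside some let-7 members. Of 10 products, both arms counted, 8 were below library 2 in both trained NIPP1* libraries and 1 was above, against 39.5% and 30.7% of all miRNAs, with a median log2 fold change of -0.25, and -0.11 by the deposited means. miR-125b-5p had 105950 RPM in library 2, 83435 and 87005 RPM in libraries 6 and 7 and 81745 RPM in library 1, and libraries 3, 4 and 5 had 87840, 104150 and 106850 RPM. miR-99b was below library 2 in all trained libraries, with 3761 RPM there and 2885 and 2962 RPM in libraries 6 and 7. None of the 10 passed the adjusted limma test.

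The microglia and leukocyte group, which includes miR-146a and miR-21, had 6 of 10 products below library 2 in both trained NIPP1* libraries and 1 above, against 39.5% and 30.7% of all miRNAs, with a median log2 fold change of -0.21 by the labels and -0.17 by the deposited means. Its summed level was 6282 RPM in library 2 and 4898 and 5288 RPM in libraries 6 and 7, with 5274 to 5953 RPM in libraries 3, 4 and 5. The myeloid miR-223 had 54.6, 48.3 and 47.6 RPM and the leukocyte miR-142-3p had 495.2, 455.6 and 535.7 RPM in libraries 2, 6 and 7. miR-342-3p, the most abundant member, was lower in both, with 3968 RPM in library 2 and 3332 and 3456 RPM in libraries 6 and 7, and the part of these cells in the level of miR-146a was not tested. Of the 6 products on the blood vessel list, 3 were above and 1 below library 2 in both libraries labelled trained NIPP1*, against 30.7% and 39.5% of all miRNAs, with a median log2 fold change of 0.07 by the labels and 0.08 by the deposited means. The smooth muscle miRNAs miR-143 and miR-145 were the 2 above library 2 in all 5 trained libraries, as were 8.61% of all miRNAs, miR-143 with 8817 RPM in library 2 and 10190 and 11310 RPM in libraries 6 and 7. For both star strands library 2 lay between libraries 6 and 7, miR-143* with 29.7 RPM against 26.8 and 35.04 RPM, and miR-145* with 44.1 RPM against 52.9 and 41.5 RPM. The endothelial miR-126-3p had 4754, 4747 and 4580 RPM. Of the Hox-locus miRNAs, which mark hindbrain and spinal cord, miR-10a had 26.1, 19.8 and 21.1 RPM.

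The 2 arms of a hairpin are made together, so they give separate readings of one precursor. For 147 hairpins with 2 tested products, 79 (53.7%) had the same sign of the log2 fold change in both arms by the labels and 91 (61.9%) by the deposited means. Both arms were above library 2 in both trained NIPP1* libraries for 15 hairpins, both were below for 26, and they lay on opposite sides for 25. miR-144 had the largest joint difference. miR-874 was lower in both arms, at log2 fold changes of -0.47 and -0.52, and both arms of miR-99b were lower, at -0.36 and -0.32.

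A list of 14 miRNAs was taken as named by the study, whose text names miR-183, miR-96 and miR-182 for this sequencing. Of the 14, 5 were above and 7 below library 2 in both trained NIPP1* libraries, against 30.7% and 39.5% of all miRNAs. Since the list was made with results of these samples known, the counts are no independent evidence. Besides those given above, miR-34a, a p53 target, had 333.1 RPM in library 2 and 386.1 and 435.3 RPM in libraries 6 and 7, miR-190 had 138.0 RPM against 206.2 and 175.6 RPM, and miR-7a had 6803 RPM against 7660 and 8497 RPM. miR-135b had 230.9 RPM against 213.9 and 201.6 RPM. miR-200c, at 0.99 RPM in library 2, had 4.94 RPM in library 6 and 1.00 RPM in library 7, and reached 11.3 RPM in library 4. In library 1 miR-34a, miR-190 and miR-7a stood at 682.5, 231.5 and 9856 RPM, above all other libraries.

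Whether training acted differently in NIPP1* and wildtype mice was tested as the difference of the 2 training effects, each of which starts from a single untrained library. No miRNA passed, 0 of 476 (0%), where limma's lowest adjusted p was 0.126 and 37 miRNAs had an unadjusted p under 0.05, and edgeR gave 0 calls and 37 in the same way. DESeq2's Wald test called 2, miR-344d-3* with a difference of 3.05 ± 0.69 on the log2 scale (adjusted p = 0.00421) and miR-136 with 0.90 ± 0.24 (adjusted p = 0.0453). By limma the difference for miR-344d-3* was 2.89 ± 0.42 (adjusted p = 0.126), from a training effect of 1.65 ± 0.31 in NIPP1* and -1.24 ± 0.29 in wildtype. For miR-136 it was 0.96 ± 0.19 (adjusted p = 0.288), from 0.69 ± 0.14 and -0.26 ± 0.13, and for miR-219-5p it was 1.99 ± 0.41 (adjusted p = 0.288), from 1.03 ± 0.30 and -0.96 ± 0.28. For miR-146a it was -1.02 ± 0.34 (adjusted p = 0.577). With the trained libraries exchanged as in the deposited means, limma called 0 for this difference too, where the lowest adjusted p was 0.997 and 6 miRNAs had an unadjusted p under 0.05. The limma difference was then -0.43 ± 0.42 for miR-344d-3*, -0.02 ± 0.19 for miR-136, -0.27 ± 0.41 for miR-219-5p and -0.32 ± 0.34 for miR-146a, with adjusted p = 0.997 for all 4. In limma the sign of the first 3 turned with the assignment. DESeq2 with the libraries exchanged, run after seeing the data, called 0 (lowest adjusted p = 0.681, 3 miRNAs with an unadjusted p under 0.05) and gave -0.40 ± 0.69 for miR-344d-3* and 0.03 ± 0.24 for miR-136, both with an adjusted p of 0.998, so that both DESeq2 calls were made by the labels alone, and edgeR called 0 with 6 at an unadjusted p under 0.05.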

How the data were processed

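Small RNA libraries of mouse hippocampus were sequenced by the study, which per the labels used CASAVA 1.7.0, Bowtie and bedtools on the mm9 build. The deposited values of each library are the percent of its miRNA reads at each mature locus, made by the authors with copies of a sequence counted at every locus. Percent was multiplied by 10000 to give RPM. The 806 loci were joined by sequence into 757 mature sequences. Where a sequence had several loci, the mean of their values was taken, and the largest difference between such copies was 2.67%. The percent then summed to 100.0 per library. Smallest steps gave back whole read counts for 99.4% or more of the low deposited values (tolerance 0.1 reads), with library totals of 7285268 to 10017708. Names came from the deposited tables, whose group means are signal values that the authors divided by size factors, and from GENCODE hairpins. Their fold changes and p-values were not used, nor were 2 columns of single libraries that name no group.

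The 476 miRNAs averaging 10 or more reads were fitted by limma 3.58.1 with a trend on log2(RPM + 0.5), all 7 libraries in a group-means model, two-sided, Benjamini-Hochberg adjustment. The untrained groups have 1 library each, so the spread comes from the trained groups. The Wilcoxon tests of the study's methods cannot be used with 2 against 1. edgeR 4.0.16 and DESeq2 1.42.0 were run on the recovered counts. The limma step was also run on simulated counts with known changes, as a check of the code only. That run does not measure the power of a comparison with 1 untrained library. Named miRNAs were those called in a fit, the 10 largest and 10 smallest ratios shared by libraries 6 and 7 (averaging 100 or more reads), the 10 most abundant, 14 listed as named by the study and the 6 furthest apart between libraries 6 and 7. Products of 28 miRNA groups were named beside these, with no fixed number per group. The comparison, the groups and the named miRNAs were chosen with earlier results of these data known. Figures used matplotlib 3.10.9.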

Additional observations from a re-analysis of the deposited data

How the results depend on the processing

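No miRNA passed limma for training in NIPP1* under the scalings, read minimums and pseudocounts tried, nor without either trained library (0 to 0 calls), and edgeR, run once, gave 0. Without library 3, 63 miRNAs in place of 9 had an unadjusted p under 0.05 by the deposited means, and 85 in place of 37 for the difference between genotypes, with 0 adjusted calls in both. DESeq2's Wald test gave 2 calls for training and 2 for its difference from wildtype, and the cause was not tested. Beyond a log2 ratio of 1 in both libraries were 2 miRNAs, 6 down to a mean of 10 reads (of 481 sequences, untested ones included), 0 in libraries 3, 4 and 5, and 6 at a ratio of 1.5. With libraries 3, 4 and 5 as trained NIPP1* the log2 fold change changed sign, among 42 miRNAs named for their ratios, abundance or listing as named by the study, for miR-219-5p (-0.10), miR-451 (-0.16), miR-592 (-0.12), miR-9 (-0.070), miR-9* (-0.021), miR-190 (-0.051), miR-7a (-0.073) and miR-219-3p (-0.22), as that grouping uses other libraries. Of other miRNAs in the text it also did so for miR-344d-3* (-0.01), miR-338-3p (-0.36), miR-34c (-0.27), miR-34b-5p (-0.29), miR-124 (-0.14) and miR-206 (-0.14), among others. With all 5 trained libraries it did so for miR-9 (-0.032) and miR-219-3p (-0.070). miR-29c (-0.02) became 0.0073 under TMM, 0.025 under DESeq2's size factors, 0.0081 in edgeR and 0.025 in DESeq2. Without library 6 and without library 7 in turn, the value was 0.032 and -0.062 for miR-29c, -0.011 and 0.31 for miR-219-3p, -0.39 and 1.23 for miR-200a, -0.66 and 0.87 for miR-200b, -0.73 and 0.13 for miR-204, -1.72 and 0.39 for miR-1298, and -1.39 and 0.20 for miR-448-3p. The median over all miRNAs was -0.03, 0.01 under DESeq2's size factors and -0.06 with all 5 trained libraries, the last 2 chosen after seeing the data. An untrained group of 1 library cannot be left out. No paired analysis was possible because the library numbers in the labels are unique and join no samples.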

Other observations

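The remaining miRNA groups are given by their counts in both libraries labelled trained NIPP1* against library 2, which over all 476 miRNAs were 30.7% above and 39.5% below, and by their median log2 fold change by the labels and then by the deposited means. The miR-17-92 and miR-106b-25 clusters, which promote proliferation, had 4 of 11 products above and 7 below, with medians of -0.19 and -0.12. miR-29, a family that rises as neurons mature, had 1 of 7 above and 5 below (-0.10 and -0.16), and miR-30 had 4 of 13 above and 7 below (-0.02 and -0.13). The miR-23/27/24 group had 4 of 7 above and 1 below (0.06 and -0.09), the miR-15, miR-16 and miR-195 group had 3 of 10 above and 3 below (0.13 and -0.07), and miR-181 had 1 of 7 above and 3 below (0.03 and -0.31), so the sign of these 3 medians depended on the assignment. miR-26 had 2 of 4 above and 0 below (0.03 and 0.09), miR-221 and miR-222 had 0 of 4 above and 2 below (-0.13 and -0.07), and miR-135 had 2 of 4 above and 2 below (0.07 and 0.04). The sign turned with the assignment for the neuroendocrine miR-7 and miR-375 group, with 3 of 5 above and 1 below (0.08 and -0.07), for miR-344, with 3 of 6 above and 2 below (0.08 and -0.15), for the Sfmbt2 repeat miRNAs, with 0 of 3 above and 1 below (-0.07 and 0.18), and for mirtrons and capped hairpins, with 1 of 7 above and 3 below (-0.29 and 0.07). No product of these groups passed the adjusted limma test.

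Seeds shared by 3 or more tested miRNAs formed 12 families. All counted members were above library 2 in both libraries labelled trained NIPP1* in 2 of these families, CAGUGCA (miR-152, miR-148b and miR-148a, with medians of 0.17 and -0.13) and AGUGCAA (miR-301a, miR-130a and miR-130b, 0.27 and -0.11) having 3 of 3 each, and both medians turned sign with the assignment. In the other direction AUUGCAC (miR-92b, miR-25, miR-92a and miR-32) had 3 of 4 below and 1 above (-0.21 and 0.08), ACCCGUA (miR-99a, miR-100 and miR-99b) had 2 of 3 below (-0.09 and -0.18) and CCCUGAG (miR-125b-5p, miR-125a-5p and miR-351) had 2 of 3 below (-0.31 and -0.04). The others, let-7 apart, had 0 to 3 of their counted members above and 0 or 1 below. Families of this size allow few counts, against 30.7% above and 39.5% below over all miRNAs.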
